A study of Mus musculus with 8 samples.

Results

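Immediate early genes are the first genes that a cell transcribes after a stimulus. The 10 examined here are Fos, Fosb, Jun, Junb, Jund, Egr1, Atf3, Ier2, Nr4a1 and Dusp1, out of 19096 genes that the array's probes could be matched to. They were found by their RefSeq accessions, which gave 11 probes of 41174, since Junb has 2 and each other gene has 1. The RNA came from Thy1+ testis cells of C57BL/6 pups at postnatal day 4 (Thy1 is a cell surface marker by which early spermatogonia are enriched), in 4 Glis3KO2 samples and 4 wild type (WT) samples, each on 1 one-colour Agilent array. Glis3KO2 pups carry a knockout of Glis3, which encodes a Kruppel-like zinc finger protein related to the GLI factors, and the labels do not describe the allele further. Pups of both groups stayed with their mothers and received no treatment. The series' design text counts 3 testes of each genotype while the labels list 4 samples, and whether each sample is a separate animal is not stated, so p-values here cover the spread between samples only, and part of it may be technical.

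The transcription of these genes needs no new protein. Growth factors, stress and calcium act through MAP kinases and cyclic AMP-dependent kinases on factors already bound to the promoters, such as SRF with its ETS partners and CREB, and the transcripts are short-lived. Fos and Fosb proteins pair with Jun, Junb or Jund to form the AP-1 transcription factor, Atf3 is a stress-induced repressor of the same bZIP class, Egr1 is a zinc finger factor, Nr4a1 an orphan nuclear receptor, Ier2 a small nuclear protein, and Dusp1 a phosphatase that switches MAP kinases off. In general these genes are also known to respond when tissue is digested into single cells and sorted. No undissociated testis was analysed here, so a response to the isolation itself was not tested.

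Promoter sequences were in RefSeq's table (GRCm38.p6) for 8 of the 10 genes. The 250 bases before the transcription start are shown for Fosb, Dusp1, Fos, Atf3 and Nr4a1, which are those with a sequence among the genes that differed most between array slides. Capitals mark TGACG, the core of the cyclic AMP response element bound by CREB and ATF factors, on either strand (CGTCA where it lies on the other strand).
Fosb, chr7:19310046-19310295, minus strand: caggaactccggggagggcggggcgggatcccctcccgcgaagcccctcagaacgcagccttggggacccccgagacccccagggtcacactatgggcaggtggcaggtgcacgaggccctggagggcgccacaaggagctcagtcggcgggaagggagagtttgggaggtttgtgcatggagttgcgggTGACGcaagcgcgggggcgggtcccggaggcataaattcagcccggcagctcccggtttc
Dusp1, chr17:26508473-26508722, minus strand: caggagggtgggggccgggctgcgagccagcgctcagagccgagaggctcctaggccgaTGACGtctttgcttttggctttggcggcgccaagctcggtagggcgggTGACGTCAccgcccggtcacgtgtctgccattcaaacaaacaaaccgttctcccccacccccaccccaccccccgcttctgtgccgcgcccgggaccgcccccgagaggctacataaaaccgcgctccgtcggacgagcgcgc
Fos, chr12:85473640-85473889, plus strand: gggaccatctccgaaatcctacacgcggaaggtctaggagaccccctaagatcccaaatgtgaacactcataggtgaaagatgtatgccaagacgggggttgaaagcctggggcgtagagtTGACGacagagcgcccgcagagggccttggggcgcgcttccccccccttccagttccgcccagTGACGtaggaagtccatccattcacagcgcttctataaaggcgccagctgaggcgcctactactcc
Atf3, chr1:191183334-191183583, minus strand: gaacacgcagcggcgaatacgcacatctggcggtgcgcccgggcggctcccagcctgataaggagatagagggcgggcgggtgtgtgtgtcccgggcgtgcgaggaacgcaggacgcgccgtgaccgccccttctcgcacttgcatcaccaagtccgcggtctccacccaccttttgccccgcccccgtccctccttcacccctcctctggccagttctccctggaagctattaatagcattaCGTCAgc
Nr4a1, chr15:101266596-101266845, plus strand: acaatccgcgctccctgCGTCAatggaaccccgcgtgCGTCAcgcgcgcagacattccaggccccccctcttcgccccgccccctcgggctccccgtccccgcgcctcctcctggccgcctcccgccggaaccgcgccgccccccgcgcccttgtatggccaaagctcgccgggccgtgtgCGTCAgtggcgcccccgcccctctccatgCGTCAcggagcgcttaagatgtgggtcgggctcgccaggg
TGACG on either strand lay in this window in 6 of the 8 promoters (Fosb, Dusp1, Fos, Atf3, Nr4a1 and Junb), against 17.8% of all 32851 promoters of the same length. Nr4a1 held 4 copies, Dusp1 3 and Fos 2. The full element TGACGTCA, which contains 2 overlapping copies of TGACG, was in the Dusp1 promoter alone of the 8 (1.55% of all promoters). The EGR site GCGNGGGCG was in Fosb and Nr4a1 (4.70% of all), and TATAAA was in Fos (12.4% of all). The CArG box bound by SRF (1.47% of all promoters), the AP-1 site TGANTCA (6.75%) and the ETS core CCGGAAG (6.91%) were in 0 of the 8 windows, which says only that these letters are not in these bases. A match is a description of sequence and was not tested for binding.

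Each value below is the array's processed signal, a background-subtracted brightness in linear units, or its log2 minus the log2 of that array's 75th percentile, called the log2 level. The 75th percentile lay between 243 and 533 units, and 86.0% to 90.3% of spots were well above background. The arrays were on 2 slides: replicates 2 and 4 of each genotype on slide 2, and replicates 1 and 3 on slide 1. Glis3 itself had log2 levels of -1.98, -2.18, -1.18 and -1.32 in Glis3KO2 replicates 1 to 4, against -1.09, -1.01, 0.57 and 0.60 in WT replicates 1 to 4, and every Glis3KO2 array lay below every WT array, with a difference of -1.43 (SE 0.45; limma adjusted p = 0.697). Without WT replicates 3 and 4, which had the highest Glis3 levels, it was -0.62 (SE 0.36; limma adjusted p = 0.999875). That fit kept Glis3KO2 replicates 3 and 4, the higher ones of their group, so replicate number was not balanced between genotypes. Within every number Glis3KO2 lay below WT. Thy1 averaged 1.88 in Glis3KO2 and 1.22 in WT, a difference of 0.65 that was 0.078 in the fit without WT replicates 3 and 4. In replicates 1 to 4 its log2 levels were 2.21, 2.46, 1.36 and 1.47 in Glis3KO2 and 1.55, 2.05, 1.33 and -0.028 in WT. Glis3KO2 was thus higher within every number. The sources used here do not say which exons were deleted, so where the probe lies relative to them is unknown. WT replicates 3 and 4 stood apart on the first principal component, at 69.1 and 60.0, with all other arrays at or below 3.87. Results are therefore also given without these 2 arrays where they move. Those fits keep Glis3KO2 replicates 3 and 4, so such a shift cannot be told apart from the unbalanced numbers. All 11 probes were well above background on all 8 arrays, and 0 spots were saturated, so all 10 genes passed the filter on dim probes.

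Fos, the partner that AP-1 acquires on stimulation, showed the widest genotype gap of the 10. Its processed signal was 1519, 4831, 787 and 1537 in Glis3KO2 replicates 1 to 4, against 559.7, 4564, 131 and 1008 in WT replicates 1 to 4. Replicate 2 of both genotypes was the brightest of its group, WT replicate 3 was the dimmest array by far, and the groups overlapped. The log2 level averaged 2.31 ± 0.76 in Glis3KO2 and 1.19 ± 1.71 in WT (SD, n = 4 each), a difference of 1.12 (SE 0.75, 95% interval -0.55 to 2.79; limma adjusted p = 0.71). Glis3KO2 exceeded WT in 4 of 4 numbered pairs, by 1.36, 0.30, 2.54 and 0.28. In the replicate block fit by limma the unadjusted p was 0.0292 and the adjusted p 0.446. In that fit 1877 of 17508 genes had an unadjusted p under 0.05. The difference of Fos was 0.43 without WT replicate 3, as it was without both WT replicates 3 and 4. Leaving out WT replicate 2 gave 1.76, and Fos then had an unadjusted p under 0.05, as did 2407 of 17508 genes.

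Fosb, a second Fos family member, gave 984, 7964, 631 and 4776 in Glis3KO2 replicates 1 to 4, against 1167, 9193, 755 and 2949 in WT replicates 1 to 4. Its arrays formed 2 sets, with replicates 2 and 4 high and replicates 1 and 3 low, and each set held both genotypes. The log2 level averaged 2.66 ± 1.51 in Glis3KO2 and 2.73 ± 1.24 in WT (SD, n = 4 each), and the difference was -0.063 (SE 0.78, 95% interval -1.80 to 1.68; limma adjusted p = 0.985).

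Jun, the best known partner of Fos, had signals of 751, 1790.0, 449.7 and 909 in Glis3KO2 replicates 1 to 4, against 902, 2205, 194 and 529.7 in WT replicates 1 to 4. Replicate 2 was again highest in both genotypes and WT replicate 3 lowest. The difference was 0.30 (SE 0.47, 95% interval -0.75 to 1.35; limma adjusted p = 0.867), while leaving out WT replicates 3 and 4 together gave -0.39.

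Jund, the Jun family member that most cells express without stimulation, gave 22734, 43797, 16926 and 29090.2 in Glis3KO2 replicates 1 to 4, against 21987, 48169.5, 14862 and 18542 in WT replicates 1 to 4. Its groups overlapped, and its spread was the smallest of the 10 genes: the SD of the log2 level was 0.30 in Glis3KO2 and 0.26 in WT. The difference was 0.13 (SE 0.24, 95% interval -0.41 to 0.67; limma adjusted p = 0.896).

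Junb, an AP-1 partner that can oppose Jun, was measured by 2 probes for the same accession, and they did not run together. The brighter probe gave 136321, 132728, 144114 and 126873 in Glis3KO2 replicates 1 to 4, against 129533, 140759, 124561 and 134141 in WT replicates 1 to 4. These 8 values spanned 1.16-fold, although the arrays' 75th percentile spanned 243 to 533 units. The dimmer probe gave 376, 1035, 166 and 375 in Glis3KO2 replicates 1 to 4, against 344, 1294, 98.9 and 210.4 in WT replicates 1 to 4, a 13.1-fold span, with replicate 2 highest in both genotypes and replicate 3 lowest. The log2 levels of the probes correlated at r = -0.92 over the 8 arrays, a description of values that share the same arrays.

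The genotype difference was -0.029 (SE 0.30, 95% interval -0.69 to 0.64; limma adjusted p = 0.984) by the brighter probe, which stands for the gene because it has the higher mean. By the dimmer probe it was 0.29 (SE 0.54; limma adjusted p over all probes = 0.916). The brighter probe's log2 level mirrored the array's own 75th percentile, with r = 0.98 against its negative, since its signal was nearly the same on every array. Spots with a mean signal above 100000 units, of which there were 18, had a median SD of log2 signal of 0.10 across arrays, against 0.40 for the 26 spots between 50000 and 100000 and 0.54 for the 4262 spots between 1000 and 10000. The saturation value was at least 648594 units and no Junb spot was marked saturated. The cause of the flat signal was not tested.

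**Figure D1:**
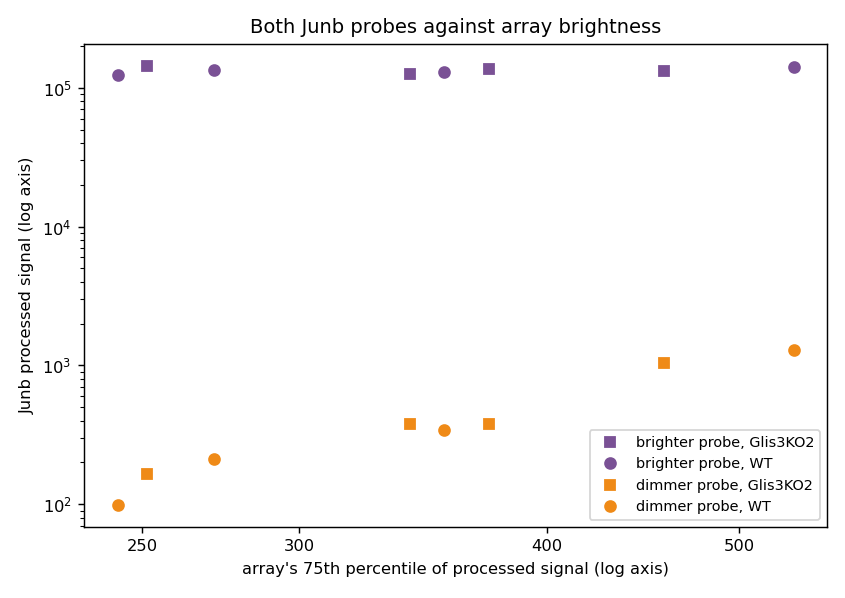
Processed signal of both Junb probes (vertical log axis) against the 75th percentile of processed signal of the same array (horizontal log axis), with Glis3KO2 as squares and WT as circles. The brighter probe stays between 124561 and 144114 units on all 8 arrays, while the dimmer probe runs between 98.9 and 1294 units and is higher on brighter arrays.

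Egr1, the zinc finger factor of the set, gave 10748, 32284, 6282 and 10782 in Glis3KO2 replicates 1 to 4, against 5347, 28976, 5101 and 10158 in WT replicates 1 to 4. Replicate 2 of each genotype stood well above the rest, and the other Glis3KO2 and WT arrays overlapped. The difference was 0.33 (SE 0.45, 95% interval -0.68 to 1.34; limma adjusted p = 0.848), and Glis3KO2 was higher in 3 of 4 numbered pairs.

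Nr4a1, the orphan nuclear receptor also called Nur77, had signals of 872, 2801, 805 and 1409.9 in Glis3KO2 replicates 1 to 4, against 831, 3013, 531 and 739.8 in WT replicates 1 to 4. The same pair of arrays, replicate 2, was highest, and the groups overlapped. The difference was 0.31 (SE 0.38, 95% interval -0.54 to 1.17; limma adjusted p = 0.83), with Glis3KO2 higher in 3 of 4 numbered pairs.

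Ier2 gave 207, 849, 255 and 367 in Glis3KO2 replicates 1 to 4, against 204, 829, 262 and 189 in WT replicates 1 to 4, again with replicate 2 of both genotypes above all other arrays. Its difference was 0.19 (SE 0.42, 95% interval -0.74 to 1.11; limma adjusted p = 0.915). Atf3, the bZIP repressor, was the dimmest, at 41.2, 145, 102 and 127 in Glis3KO2 replicates 1 to 4, against 57.1, 288, 24.1 and 72.9 in WT replicates 1 to 4. It was highest in WT replicate 2 and lowest in WT replicate 3, and its difference was 0.30 (SE 0.56, 95% interval -0.95 to 1.54; limma adjusted p = 0.896), while leaving out WT replicates 3 and 4 together gave -0.13.

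Dusp1, the MAP kinase phosphatase, gave 1378, 5847, 1059 and 3805 in Glis3KO2 replicates 1 to 4, against 3031, 7774, 1032 and 2737 in WT replicates 1 to 4. Replicate 2 was highest and replicate 3 lowest in each genotype, and on the log2 level replicates 2 and 4 lay above replicates 1 and 3 in both. It had the lowest genotype difference of the 10, at -0.32 (SE 0.50, 95% interval -1.43 to 0.79; limma adjusted p = 0.866), and was lower in Glis3KO2 in 3 of 4 numbered pairs.

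Between the genotypes, 0 of the 10 genes passed at a limma adjusted p under 0.05, where 0% of all 17508 genes did. At an unadjusted p under 0.05 it was also 0 of 10, against 6.9% of all genes (1208). With the replicate block it was 1 of 10, Fos, where 1877 of all 17508 genes had such a p. For 0 of 10 the groups did not overlap, against 3.5% of all genes. The mean was higher in Glis3KO2 for 7 of the 10 genes (40.8% of all genes) and lower for 3, which were Fosb, Junb and Dusp1 (59.2% of all genes). With Junb read from its dimmer probe it was higher for 8 and lower for 2. Of the 11 probes, 0 had an unadjusted p under 0.05, against 6.39% of all probes, and 0% of all probes passed the adjusted threshold. The median difference of the 10 was 0.24, beside -0.084 over all genes, and by replicate number it was -0.042, 0.096, 0.21 and 0.34. The intervals of the fit with genotype only leave room for a sizeable effect. That of Fos reached 2.79 on the log2 scale and those of Fosb and Dusp1 reached -1.80 and -1.43. With the replicate block the 95% intervals were 0.15 to 2.09 for Fos, -0.59 to 0.46 for Fosb and -0.99 to 0.35 for Dusp1. A p that missed the threshold thus does not show that the genotypes were alike. Leaving out WT replicate 2 moved the median to 0.53, leaving out Glis3KO2 replicate 1 moved it to 0.41, and it was 0.046 without Glis3KO2 replicate 2, 0.049 without WT replicate 1, 0.081 without WT replicate 3, 0.15 without Glis3KO2 replicate 4 and 0.023 without both WT replicates 3 and 4.

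**Figure D2:**
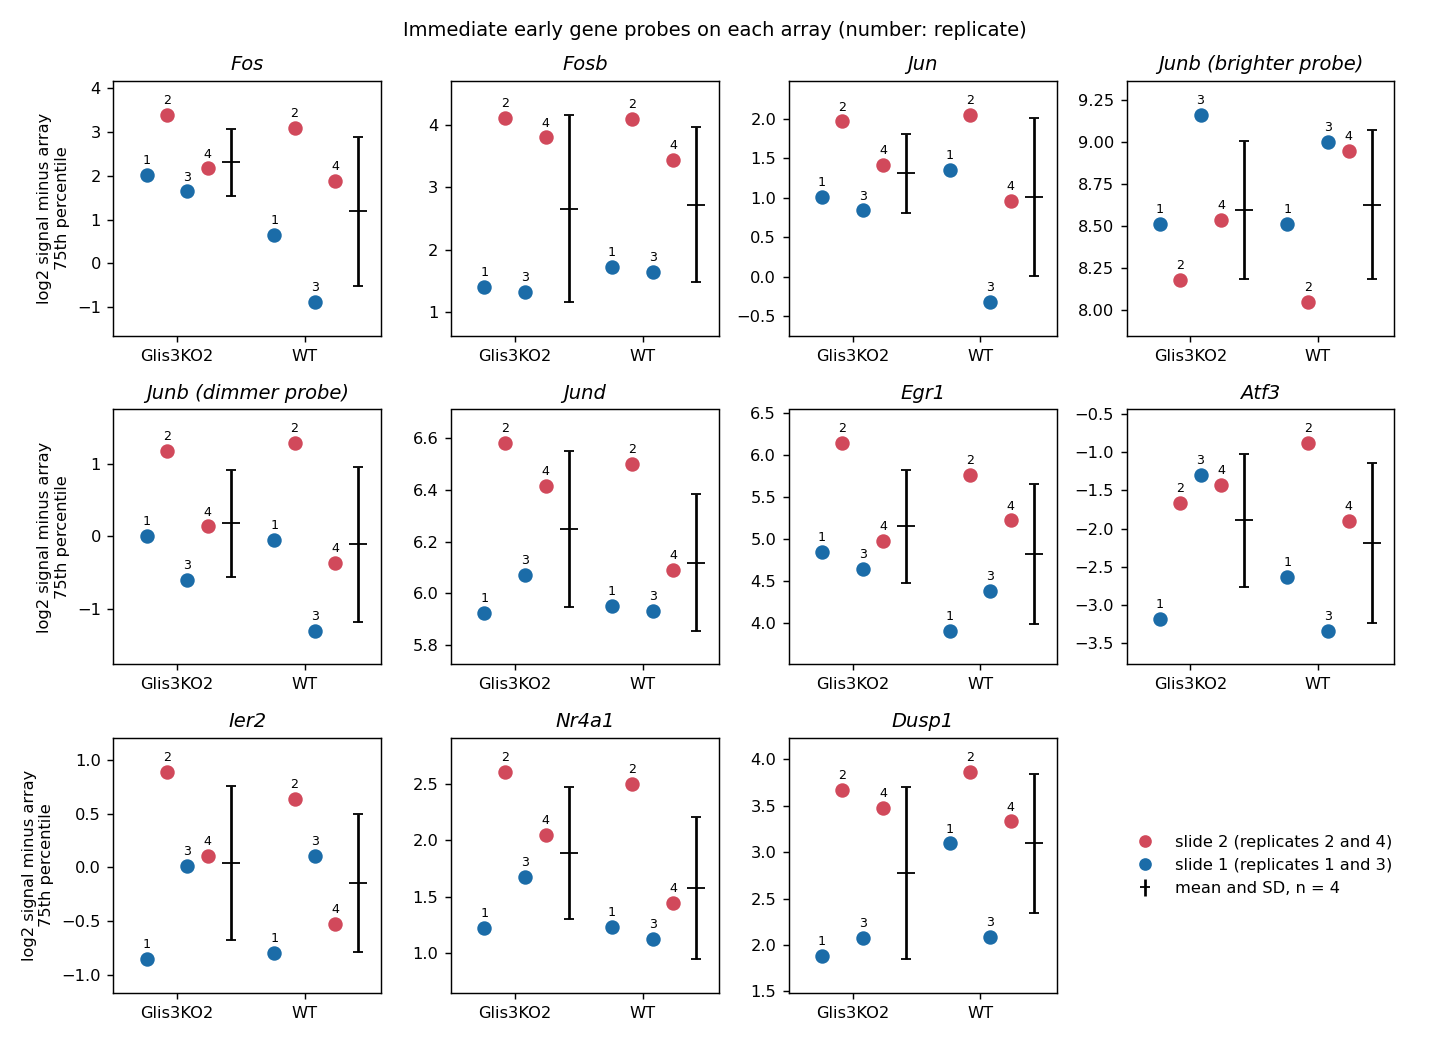
Log2 level (log2 processed signal minus the array's 75th percentile, vertical axes differ) of each probe on each array, with Glis3KO2 left and WT right, numbers giving the replicate, colours the slide, and bars the mean and SD (n = 4). In all panels but the brighter Junb probe and Atf3, replicate 2 is the highest array of both genotypes, and the genotypes overlap in every panel.

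The larger difference lay between replicate numbers, and the genotypes shared it. The mean of the 10 genes, each centred on its own mean over the 8 arrays, was 0.79 and 0.36 in Glis3KO2 replicates 2 and 4 and 0.77 and 0.094 in WT replicates 2 and 4, all on slide 2. On slide 1 it was -0.52 and -0.18 in Glis3KO2 replicates 1 and 3 and -0.50 and -0.82 in WT replicates 1 and 3. All 4 arrays of slide 2 thus lay above all 4 of slide 1. Glis3KO2 replicate 2 had 6 of the 10 genes at their highest and WT replicate 2 had 3, while WT replicate 3 had 4 at their lowest and Glis3KO2 replicate 1 had 3.

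Slide was then added as a term beside genotype in the fit over all genes, a test chosen after these values were seen. It treats the 8 arrays as independent, although the numbers count as pairs and each slide holds only 2 numbers, so its p-values may be too small and its intervals too narrow. A fit on the means of the 2 arrays of each number, 2 against 2, is given beside it. Fosb averaged 3.87 ± 0.32 on slide 2 and 1.52 ± 0.19 on slide 1 (SD, n = 4 each). The difference of 2.35 (SE 0.24, unadjusted p = 5.7e-06, limma adjusted p = 0.0998) had the smallest p of all 17508 genes in the fit on 8 arrays and corresponds to a 5.10-fold higher signal. On number means the SE was 0.32, the unadjusted p 0.000243 and the limma adjusted p 0.999976. The difference was 2.60 within Glis3KO2 and 2.10 within WT, and it held for replicate 2 minus 1 (2.56) and replicate 4 minus 3 (2.14). The adjusted p ranged between 0.0247 and 0.999976 over the alternatives, passing under normexp with quantile normalization (0.0289) and under eBayes with trend and robust (0.0247).

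Dusp1 differed between slides by 1.30 (SE 0.29, unadjusted p = 0.00166, limma adjusted p = 0.954), Egr1 by 1.08 (SE 0.31, unadjusted p = 0.00761, limma adjusted p = 0.954) and Fos by 1.78 (SE 0.52, unadjusted p = 0.00794, limma adjusted p = 0.954). For Nr4a1 the difference was 0.84 (SE 0.29, unadjusted p = 0.0181, limma adjusted p = 0.954) and for Atf3 1.14 (SE 0.45, unadjusted p = 0.0327, limma adjusted p = 0.954). Replicate 2 minus 1 gave more than replicate 4 minus 3 for Nr4a1 (1.33 and 0.34), Atf3 (1.64 and 0.65) and Egr1 (1.57 and 0.59). Fos had 1.91 and 1.65, and Dusp1 1.28 and 1.33. These 5 genes and Fosb make 6 of 10 that were higher on slide 2 at an unadjusted p under 0.05, where 2.38% of all genes were. Lower on slide 2 at that threshold were 0 of 10, against 2.06% of all genes, so in either direction it was 6 of 10 against 4.43%. On number means 5 of 10 were higher at an unadjusted p under 0.05, against 1.54% of all genes. These were Fosb, Dusp1, Fos, Atf3 and Egr1, each with a limma adjusted p of 0.999976, and Nr4a1 was no longer among them. At the adjusted threshold 0 of 10 passed in either fit, as did 0% of all genes.

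Jun, Jund and Ier2 were higher on slide 2 by 0.88 (unadjusted p = 0.0561), 0.42 (0.0714) and 0.66 (0.118) and missed both thresholds. Ier2 differed in direction between the numbers, at 1.59 for replicate 2 minus 1 and -0.27 for replicate 4 minus 3. The dimmer Junb probe was at 1.04 (SE 0.45, unadjusted p = 0.0487, limma adjusted p = 0.957), adjusted over all probes, and the brighter one at -0.37 (SE 0.29). On the log2 level of Fosb, Jund, Egr1 and Dusp1 all 4 slide 2 arrays lay above all 4 slide 1 arrays, 4 of 10 genes against 1.45% of all genes. The mean was higher on slide 2 for 9 of 10 genes, against 48% of all genes. The median slide difference of the 10 genes was 0.98, beside -0.016 over all genes.

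**Figure D3:**
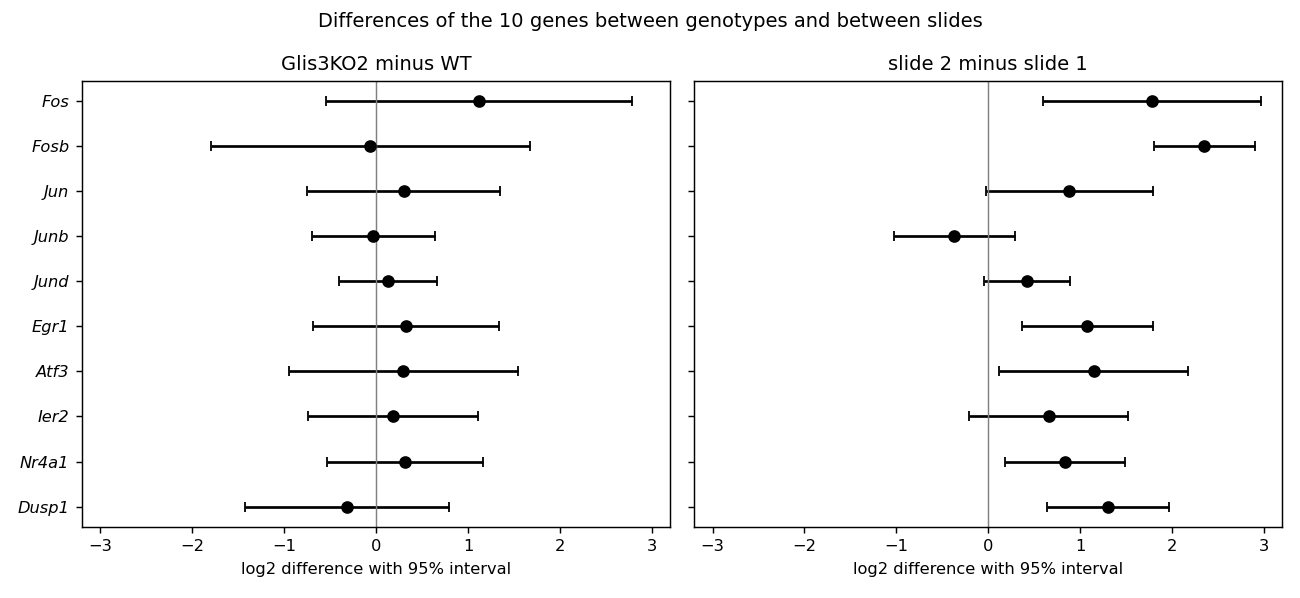
Log2 differences (horizontal axes) with 95% intervals from limma for the 10 genes, Glis3KO2 minus WT on the left (genotype as the only term) and slide 2 minus slide 1 on the right (slide and genotype as terms, 8 arrays taken as independent). All 10 genotype intervals cross 0, while the slide intervals of Fos, Fosb, Egr1, Atf3, Nr4a1 and Dusp1 lie above 0. On number means the slide interval of Nr4a1 runs between -0.053 and 1.73. With the replicate block, not drawn, the genotype interval of Fos runs between 0.15 and 2.09 and the others cross 0.

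Of the sum of squares of Fosb over the 8 arrays, 98.5% lay between replicate numbers and 0.070% between genotypes. The median over the 10 genes was 85.2% between numbers and 4.53% between genotypes, beside medians of 48.8% and 11.5% over all genes. Slide alone, which takes 1 of the 3 degrees of freedom of the number, held a median of 53.2% for the 10 genes and 8.17% for all genes. Replicate number, slide and whatever else the samples of a number shared cannot be told apart from these arrays. The arrays' 75th percentile, a measure of brightness, overlapped between slides and was highest in replicate 2 of both genotypes. On slide 2 it was 458 and 341 in Glis3KO2 and 533 and 272 in WT. On slide 1 it was 374 and 251 in Glis3KO2 and 355 and 243 in WT. In both genotypes it was higher in replicate 2 than in replicate 1 and in replicate 4 than in replicate 3. It had been subtracted before these comparisons, and the median slide difference was 0.96 after quantile normalization, 0.64 with normexp and the 75th percentile and 0.75 with normexp and quantile normalization, but its part in the result was not further tested.

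**Figure D4:**
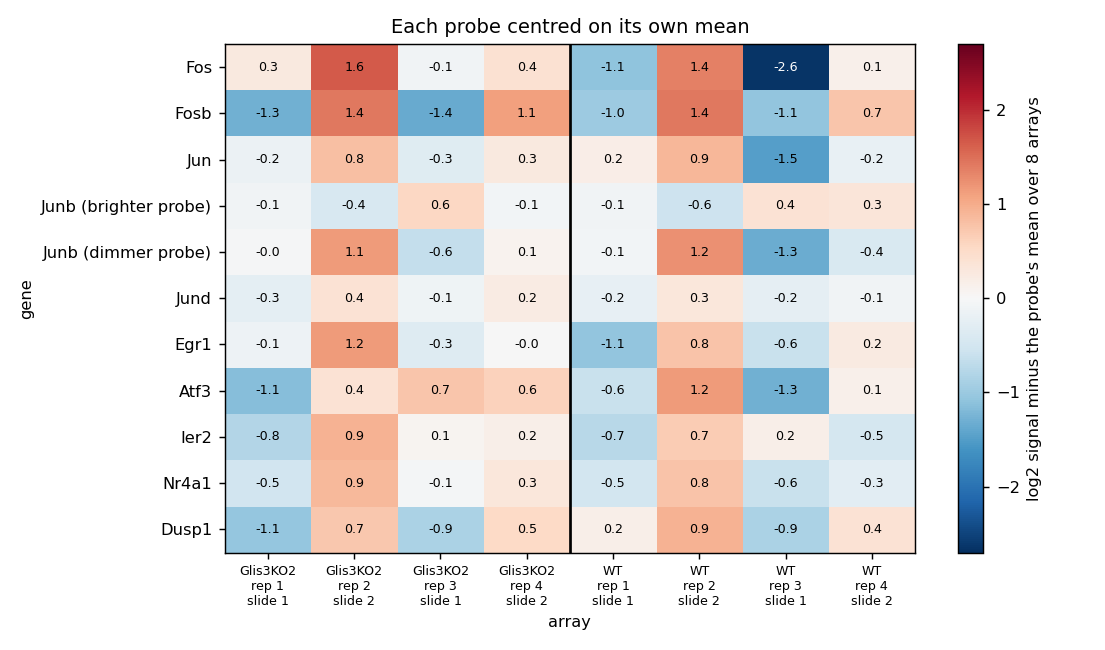
Log2 level of each probe (rows) on each array (columns, Glis3KO2 left of WT) minus the probe's mean over the 8 arrays, red above and blue below it. The columns of replicate 2 are red in both genotypes for all probes except the brighter Junb probe, and replicates 1 and 3 are mostly blue.

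Repeat spots give the printing and scanning error within an array, which leaves out all variation between samples. Fos and Jun are printed at 10 positions on each array, of which 8 to 10 could be used. The SD of log2 signal among repeat spots of Fos had a median of 0.063 over the arrays and a highest value of 0.32 in WT replicate 3, where the signal was lowest, while the SD between arrays was 0.76 in Glis3KO2 and 1.71 in WT. For Jun the median among spots was 0.084 and the SD between arrays 0.50 in Glis3KO2 and 0.996 in WT.

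**Figure D5:**
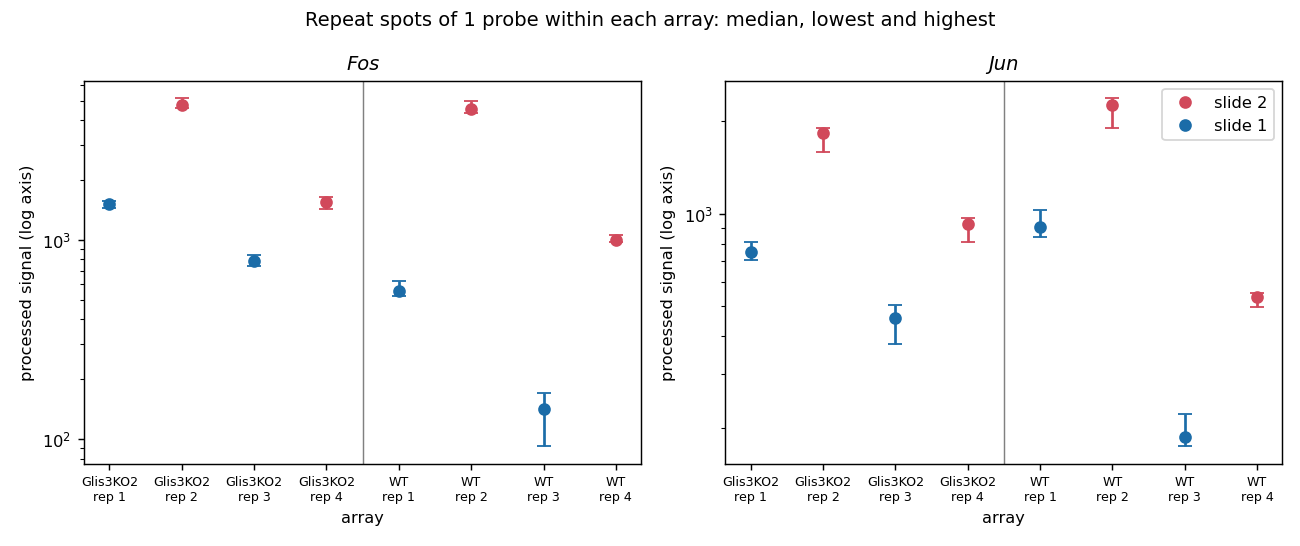
Processed signal (log axis) of the repeat spots of Fos and Jun on each array, with Glis3KO2 left of WT, points at the median of 8 to 10 spots and bars reaching from the lowest to the highest spot. The bars show spots within an array only, for example 4591 to 5154 units for Fos in Glis3KO2 replicate 2 and 92.2 to 170.2 units in WT replicate 3.

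The members other than Junb tracked each other. Leaving out Junb, all 36 pairs of the other 9 genes had r above 0 over the 8 arrays, with a median of 0.76 and a range of 0.37 (Jun with Ier2) to 0.98 (Jund with Nr4a1). Within slides, after each slide's mean was removed, 34 of 36 were above 0 and the median was 0.50. The brighter Junb probe had r between -0.82 and -0.29 with the other 9 genes and the dimmer probe between 0.51 and 0.95. These correlations describe 8 arrays that share their scaling and are given without a test.

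The genes outside the set whose levels were most like the mean of the 10, by Pearson correlation over the 8 arrays among 16690 genes, were Kdelr3 (r = 0.95), Ano10 (0.95), Ost4 (0.95), Pcdhb12 (0.95) and Zfp36 (0.95). These are the highest of 16690 correlations on 8 arrays and were not tested. The mean of the 10 takes Junb from its brighter probe. Kdelr3 is a receptor that returns proteins to the endoplasmic reticulum, and Zfp36, also called tristetraprolin, is itself an immediate early gene whose protein destabilises AU-rich transcripts. Zfp36 had log2 levels of 5.04, 6.36, 5.17 and 5.86 in Glis3KO2 replicates 1 to 4, against 5.02, 6.54, 4.86 and 5.16 in WT replicates 1 to 4, highest in replicate 2 of both genotypes.

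All 42 genes of a list of other immediate early genes were measured, and 0 passed between genotypes at an adjusted p under 0.05. At an unadjusted p under 0.05, 0 were higher and 1 was lower in Glis3KO2 (2.15% and 4.75% of all genes), and their median difference was 0.087. The 1 lower gene was Egr2, a zinc finger relative of Egr1, at -0.98 (SE 0.42). Its log2 levels were 1.92, 2.73, 2.73 and 2.21 in Glis3KO2 replicates 1 to 4, against 2.56, 2.71, 4.38 and 3.89 in WT replicates 1 to 4, with its 2 highest arrays in WT replicates 3 and 4. Without those arrays its difference was -0.23 (SE 0.32), and the list then had 1 gene higher and 2 lower at an unadjusted p under 0.05 (2.05% and 2.35% of all genes), with a median of -0.10. Bhlhe40, a circadian repressor, was at -0.68 (SE 0.35), Ier5l at -0.52 (SE 0.26), the matricellular protein gene Ccn1 at 0.96 (SE 0.48), the kinase gene Sgk1 at 0.43 (SE 0.29) and Csrnp1 at 0.35 (SE 0.24), each with an adjusted p of at least 0.697. Without WT replicates 3 and 4 Bhlhe40 was at -1.10, Ier5l at -0.27, Ccn1 at 0.57 and Sgk1 at 0.23.

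Between slides, the median difference of the 42 was 0.099. Of the 42, 4 were higher on slide 2 at an unadjusted p under 0.05 and 0 were lower (2.38% and 2.06% of all genes). These were Klf4 at 1.34 (SE 0.28) and Klf6 at 0.94 (SE 0.37), both Kruppel-like factors, Socs3, an inhibitor of cytokine signalling, at 1.26 (SE 0.35), and Zfp36 at 0.96 (SE 0.31). Klf4 had log2 levels of -0.55, 1.44, 0.58 and 1.44 in Glis3KO2 replicates 1 to 4, against 0.30, 1.33, -0.19 and 1.30 in WT replicates 1 to 4. On number means 3 of the 42 were higher at an unadjusted p under 0.05, against 1.54% of all genes. None of the 4 passed the adjusted threshold (limma adjusted p = 0.954 each).

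The kinases and factors that act on immediate early promoters gave 27 measured genes of 29. At an unadjusted p under 0.05, 1 was higher and 2 were lower in Glis3KO2 (2.15% and 4.75% of all genes). Between slides it was 0 in either direction (4.43% of all genes). Rps6ka5, also called MSK1, which phosphorylates CREB and histone H3 at these promoters, had log2 levels between -0.41 and 0.14 in Glis3KO2 and between -1.66 and -0.58 in WT. All 4 Glis3KO2 arrays lay above all 4 WT arrays, with a difference of 1.06 (SE 0.27) and a limma adjusted p of 0.697. Mapk7, which encodes the kinase ERK5, was at -0.48 (SE 0.21) and Crem, a CREB relative with activator and repressor forms, at -0.51 (SE 0.23). Mapk7, Crem and Rps6ka5 were the only genes of the 27 whose groups did not overlap, against 3.5% of all genes. Crebbp, a histone acetyltransferase that CREB recruits, was at -0.47 (SE 0.23). Creb1 was at 0.40 (SE 0.27) and the ETS factor Elk3 at 0.55 (SE 0.41), with no unadjusted p under 0.05. Without WT replicates 3 and 4 Rps6ka5 was at 0.82, Crebbp at -0.25, Creb1 at 0.0034 and Elk3 at -0.032.

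Of other AP-1 and ATF genes (17 of 18 measured), 0 were higher and 1 lower in Glis3KO2 at an unadjusted p under 0.05. The shares of all genes were 2.15% and 4.75%. Other MAP kinase phosphatases and feedback inhibitors (14 of 15) had 1 higher and 0 lower. The 6 NAB and related inhibitor genes also had 1 higher and 0 lower, and the same shares of all genes apply to each list. Their median differences were 0.22, -0.025 and -0.18, and without WT replicates 3 and 4 -0.016, 0.048 and 0.068. Heat shock genes also respond to stress during isolation in general. Of 15, 0 were higher and 1 was lower in Glis3KO2 at an unadjusted p under 0.05 (2.15% and 4.75% of all genes). The lower gene was Hsf1, the heat shock transcription factor, at -0.65 (SE 0.25). Hsf2 was at 0.79 (SE 0.41), the co-chaperone Bag3 at 0.49 (SE 0.36) and Hsp90aa1 at -0.49 (SE 0.34). Without WT replicates 3 and 4 Hsf2 was at 1.41, Bag3 at 0.096 and Hsp90aa1 at 0.13. Between slides 0 of the 15 had an unadjusted p under 0.05 (4.43% of all genes), with a median of 0.10.

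Markers of other testis cells varied over the same arrays, and in bulk RNA fewer cells of a type and less RNA per cell cannot be told apart. Germ cell markers averaged lower in Glis3KO2 for 15 of 15, where 59.2% of all genes did, with 4 of the 15 under an unadjusted p of 0.05 (4.75% of all genes). The log2 of their summed level was 4.99, 4.65, 5.43 and 5.44 in Glis3KO2 replicates 1 to 4. In WT replicates 1 to 4 it was 4.75, 5.04, 6.23 and 6.69. Glis3KO2 was above WT within number 1 and below it within the others, with the widest gaps within numbers 3 and 4. Without WT replicates 3 and 4, and with those of Glis3KO2 kept, 10 of 15 were lower in mean (53.8% of all genes). Of these, 1 was at an unadjusted p under 0.05 (2.35% of all genes). The median difference of the germ cell markers was then -0.034, against -0.81 with all arrays. Means in Glis3KO2 were higher for 11 of 11 stroma markers, 8 of 8 peritubular and smooth muscle markers, 11 of 12 macrophage markers, 4 of 8 endothelial markers and 5 of 7 lymphocyte markers (40.8% of all genes). The stroma sums were 6.83, 8.40, 6.80 and 6.49 in Glis3KO2 replicates 1 to 4, against 5.98, 7.36, 5.34 and 5.22 in WT replicates 1 to 4, where replicates 3 and 4 were the lowest arrays. Without these 2 arrays the means were higher for 10 of 11 stroma, 8 of 8 peritubular and smooth muscle and 2 of 12 macrophage markers. The median differences were then 0.34, 0.28 and -0.25, against 0.96, 0.93 and 0.40 with all arrays. Glis3KO2 replicates 3 and 4 were kept, so the numbers were unbalanced. Stroma and peritubular sums were higher in Glis3KO2 within every number, and macrophage sums within all but number 2. With all arrays means were higher for 3 of 12 Sertoli cell markers, 1 of 6 Leydig cell markers and 1 of 4 erythroid markers, and 0 genes of any of these lists passed at an adjusted p under 0.05. The mean was higher on slide 2 for 11 of 11 stroma markers and 9 of 15 germ cell markers (48% of all genes). The stroma sums lay between 5.22 and 8.40 on slide 2 and between 5.34 and 6.83 on slide 1. In each genotype replicate 2 had the highest stroma sum. Replicate 4 (6.49 in Glis3KO2, 5.22 in WT) lay below replicate 3 (6.80 in Glis3KO2, 5.34 in WT). Sertoli cell markers were higher on slide 2 for 6 of 12, macrophage markers for 1 of 12 (sums between 4.22 and 5.53 on slide 2 and between 4.69 and 6.05 on slide 1) and Leydig cell markers for 0 of 6 (sums between 3.22 and 4.37 on slide 2 and between 4.07 and 6.07 on slide 1).

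Collagen and macrophage transcripts were thus well above background in cells labelled as spermatogonial progenitors. Of the defining markers, Mfap5 of the stroma was well above background on 5 of 8 arrays, and Col1a1, Csf1r, Sox9 and Ddx4 on all 8. Endothelial markers had a higher mean on slide 2 for 2 of 8 and peritubular and smooth muscle markers for 2 of 8. Lymphocyte markers did for 6 of 7 and erythroid markers for 2 of 4, where 48% of all genes did. The part of these cells in the slide difference of the immediate early genes was not tested.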

How the data were processed

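RNA was amplified by the NuGEN Ovation Pico method and labelled as cDNA with Cy3, per the labels' protocols. Per the file headers, Feature Extraction 12.0.0.7 (Agilent) wrote the deposited files, whose processed signal is a background-subtracted linear intensity per spot. The deposited series table equalled it on 100% of spots (relative tolerance 1e-06), with column medians of 67.2 to 143.6.

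Values here are log2 intensity less the 75th percentile of the array's non-control spots. Spots flagged as outliers (73 to 109 per array) were left out, and spots of a probe averaged. Probes were named through unversioned RefSeq accessions: 28223 of 41174 matched 1 gene and 12951 stayed unnamed. A probe was kept if at least 4 of 8 arrays had it well above background (36415 probes), and each of 17508 genes was read from its brightest probe on average. Precision is limited by how few arrays there are.

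The test was limma 3.58.1 in R 4.3.3 (genotype only, Benjamini-Hochberg over all genes, threshold 0.05), and the script was tested on simulated data. Genes to name were the 10 members, Glis3 and Thy1, the 3 of smallest p in each direction from the lists of other immediate early genes and of kinases and factors (2 for heat shock genes), and the 5 most correlated genes. Genes named for the slide comparison were chosen after seeing their values. The members and lists were chosen with earlier results of these data known.

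On both slides WT arrays were at positions 1 and 2 and Glis3KO2 arrays at positions 3 and 4, so position and genotype cannot be told apart. Arrays 1 to 4 of Glis3KO2 and WT, taken as deviations from their group, correlated with their own number at 0.16, 0.34, 0.18 and 0.13 (r over genes, which are not independent). WT replicate 3 with Glis3KO2 replicate 4 (0.14) and WT replicate 4 with Glis3KO2 replicate 3 (0.12) exceeded 0.1 as well. Each own-number value exceeds 0.1, so by that threshold the numbers count as pairs and a replicate block was fitted as well. The values do not set number 3 apart from number 4. Alternatives were other background corrections, scalings, filters, probe rules, blocks, spread models, array weights, and leaving out single arrays. The slide comparison, its fit on number means, the dimmer Junb probe and leaving out WT replicates 3 and 4 together were added after seeing the data.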

Additional observations from a re-analysis of the deposited data

How the results depend on the processing

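Between genotypes 0 of the 10 genes, and 0 of their 11 probes where probes were fitted, passed under any alternative. Over all genes 1 passed with quantile normalization of log2 signal (Gm16702, chosen after its values were seen) and 0 under the other alternatives, where 1208 had an unadjusted p under 0.05 by limma with all arrays. That count was 2533 with array weights, 2407 without WT replicate 2, 663 without WT replicate 3 and 770 without both WT replicates 3 and 4. Of the 10 genes, Fos alone had an unadjusted p under 0.05 with normexp and the 75th percentile, with the replicate block and without WT replicate 2. Of all 17508 genes, 1641, 1877 and 2407 did under these settings, so Fos was 1 of many. The median difference of the 10 ran between 0.046 and 0.53 with 1 array left out, and was 0.023 with WT replicates 3 and 4 both left out, which was added after seeing the data. Signs of small differences turned. With normexp and the 75th percentile Fosb was at 0.14, Junb at 0.17 and Atf3 at -0.094. Junb was at 0.13 with the mean over its probes and at 0.29 by its dimmer probe, and Ier2 at -0.0044 with array weights. Without both WT replicates 3 and 4 Jun was at -0.39, Junb at 0.32 and Atf3 at -0.13. With 1 array left out, Fosb ran between -0.55 and 0.40, Jun between -0.15 and 0.64, Junb between -0.22 and 0.11, Egr1 between -0.00016 and 0.64, Atf3 between -0.086 and 0.73 and Ier2 between -0.098 and 0.48. Fos, Jund and Nr4a1 stayed above 0 and Dusp1 below 0 under all 21 alternatives. Filters, probe rules, blocks and spread models cannot move the difference of a gene with 1 probe, so those alternatives say nothing about its sign. With 1 array left out Fos ran between 0.43 and 1.76, Jund between 0.018 and 0.25, Nr4a1 between 0.074 and 0.62, and Dusp1 between -0.65 and -0.019. With the replicate block, limma called 0 genes, as without it. An unadjusted p under 0.05 was held by 1877 genes against 1208 without the block, and Fos alone of the 10 came under it. The difference of Fos of 1.12 had a limma adjusted p of 0.446. The cause of these shifts was not tested.

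Between slides, 4 to 9 of the 10 were higher on slide 2 at an unadjusted p under 0.05 with 1 array left out (1.71% to 3.40% of all genes), and 5 to 8 under the other alternatives (1.01% to 3.30% of all genes). Their median difference ran between 0.64 and 1.11 over all of them. The adjusted threshold was passed by 1 gene, Fosb, under normexp with quantile normalization and under eBayes with trend and robust, and by 0 genes otherwise. Junb was at 0.34 with the mean over its probes and at 1.04 by its dimmer probe, against -0.37 by the brighter one. The other 9 genes were higher on slide 2 under all 20 alternatives. Each has 1 probe, so filters, probe rules, the spread model and number means could not move their slide differences.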

Other observations

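The genes of smallest p between slides, chosen after their values were seen, began with Fosb. The first 10 also held Cd5l, a protein secreted by macrophages, with a log2 difference of 2.20 (SE 0.34), the lubricating proteoglycan gene Prg4 with 1.99 (SE 0.32) and Vash2 with 1.79 (SE 0.30). Cd69, an early activation antigen of lymphocytes, was at 1.66 (SE 0.30). All 4 were higher on slide 2, and their limma adjusted p lay between 0.683 and 0.749, so none passed.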
